A study of Mus musculus with 8 samples.

Results

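Fcgbp, Efemp1, Selenbp2, Gpha2, Maob and Tmem45a2 are 6 genes of secreted, metabolic and membrane proteins whose signals were far higher in basal epidermal cells of TPA-treated skin than in those of untreated skin. They were picked for that difference from the 17097 genes of an Affymetrix array, so their difference between TPA and control arrays is a description here and carries no test. Each of the 6 genes had a single probe set carrying its symbol alone. The question left for testing is how far the same genes followed in stretched skin.

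The cells came from the back skin of CD1 mice, an outbred laboratory strain, with 1 array per mouse. TPA arrays (n = 2) are from mice treated with 12-O-tetradecanoylphorbol-13-acetate, the phorbol ester classically used to make mouse epidermis proliferate. EXPD4 arrays (n = 3) are from mice whose skin had undergone forced tissue expansion, at day 4, and CTRL arrays (n = 3) are from untreated mice. For each array 300 cells positive for the integrin ITGA6 and negative for CD34, a bulge marker, were sorted, a gate that takes in infundibulum cells as well as interfollicular ones. The labels give no dose or duration of TPA and no age or sex of the mice. Signals are log2 values after RMA, so that 1 unit is a 2-fold difference, and they are given per array or as mean ± SD. In RNA pooled from many cells, fewer cells of a type and less RNA per cell cannot be told apart.

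The basal keratins Krt5 (13.33 ± 0.01, 13.29 ± 0.03 and 13.28 ± 0.05 in TPA, EXPD4 and CTRL arrays) and Krt14 lay near the top of the scale in each group. Itga6, the positive marker of the gate, was not even between groups. It stood at 11.58 ± 0.09, 11.80 ± 0.04 and 12.27 ± 0.04 in TPA, EXPD4 and CTRL arrays. Its TPA and EXPD4 arrays were all lower than its CTRL arrays (-0.69 ± 0.08 and -0.47 ± 0.07, log2 difference ± SE). Cd34 lay under the background limit on all 8 arrays. This limit is the 95th percentile, on each array, of 79 smell, vomeronasal and trace amine receptor genes (6.37 to 6.55), because no detection calls were used. Genes known for induction by phorbol ester and wounding ran against the labels. Krt6a and Krt16 were lowest in TPA arrays. Krt16, a keratin of wounded epidermis, stood at 12.15 ± 0.07, 12.90 ± 0.04 and 13.04 ± 0.01 in TPA, EXPD4 and CTRL arrays, and Odc1, a classical TPA-induced gene, at 8.99 ± 0.09, 9.84 ± 0.14 and 11.34 ± 0.02. Groups are therefore named by their labels throughout. If the TPA and CTRL labels were exchanged, the 6 genes would be highest, or for Maob near highest, in untreated skin, EXPD4 minus CTRL would take the size of the present TPA minus EXPD4 with the sign turned, and the reverse, so that each rise given here would be a fall.

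The 6 genes belong to different pathways. Fcgbp encodes a large secreted glycoprotein with von Willebrand factor type D domains, best known from the mucus of the gut and airways. Efemp1 encodes fibulin-3, a secreted matrix glycoprotein of the fibulin family that binds the protease inhibitor TIMP3. Gpha2 encodes the alpha subunit of thyrostimulin, a glycoprotein hormone that acts on the thyrotropin receptor, and it is also known as a marker of stem cells in the limbus of the cornea. Selenbp2 is a close relative of Selenbp1, whose product oxidises methanethiol. Maob encodes monoamine oxidase B, an enzyme of the outer mitochondrial membrane that breaks down amines such as phenylethylamine and dopamine. Tmem45a2 encodes a membrane protein of the TMEM45 family, whose human member TMEM45A is linked to keratinization.

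RefSeq upstream windows (GRCm38.p6) were at hand for 4 of the 6 genes, Fcgbp, Efemp1, Selenbp2 and Gpha2, and are shown as a description. The rise that these genes share from CTRL to TPA arrays is fixed by their choice. The window of Selenbp1 is added as that of the close relative of Selenbp2. Each holds the 250 bases before the annotated transcript start, read 5′ to 3′, and the genome build behind the array is not given in the sources used here. Capitals mark matches, on either strand, to any of 6 motifs: the core of the TATA box (TATAAA), a loosened AP-1 pattern with any base in its middle (TGANTCA), the cyclic AMP response element (TGACGTCA), the GC box (GGGCGG), the box bound by Krüppel-like factors (CACCC) and the core of nuclear receptor sites (AGGTCA).
Fcgbp, chr7:28070986-28071235, + strand: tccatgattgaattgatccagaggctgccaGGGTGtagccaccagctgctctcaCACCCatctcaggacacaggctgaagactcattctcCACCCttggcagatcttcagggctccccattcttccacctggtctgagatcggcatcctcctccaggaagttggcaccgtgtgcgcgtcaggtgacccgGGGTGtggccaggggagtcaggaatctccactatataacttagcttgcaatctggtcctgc
Efemp1, chr11:28852955-28853204, + strand: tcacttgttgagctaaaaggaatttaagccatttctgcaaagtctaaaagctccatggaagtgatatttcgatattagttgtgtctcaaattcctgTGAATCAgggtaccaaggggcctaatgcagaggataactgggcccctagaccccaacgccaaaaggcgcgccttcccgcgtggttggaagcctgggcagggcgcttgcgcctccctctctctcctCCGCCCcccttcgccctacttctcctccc
Selenbp2, chr3:94693323-94693572, + strand: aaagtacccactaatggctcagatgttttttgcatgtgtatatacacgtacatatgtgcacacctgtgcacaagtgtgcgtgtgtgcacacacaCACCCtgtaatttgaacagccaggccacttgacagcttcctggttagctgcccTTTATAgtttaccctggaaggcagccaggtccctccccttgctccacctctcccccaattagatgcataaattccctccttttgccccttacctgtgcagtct
Selenbp1, chr3:94932833-94933082, + strand: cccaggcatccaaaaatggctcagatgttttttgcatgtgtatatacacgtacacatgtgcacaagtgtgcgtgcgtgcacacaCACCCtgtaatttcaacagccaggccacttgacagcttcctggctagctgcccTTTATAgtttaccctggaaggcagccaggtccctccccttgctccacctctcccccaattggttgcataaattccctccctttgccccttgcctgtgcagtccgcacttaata
Gpha2, chr19:6226151-6226400, + strand: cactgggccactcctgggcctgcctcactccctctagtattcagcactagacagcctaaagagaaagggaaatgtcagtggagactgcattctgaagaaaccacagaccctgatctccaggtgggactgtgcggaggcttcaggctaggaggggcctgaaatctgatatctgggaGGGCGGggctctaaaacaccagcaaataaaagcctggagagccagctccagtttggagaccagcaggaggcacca

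No motif was found in more than 2 of the 4 member windows. CACCC was found in Fcgbp (4 matches) and Selenbp2, and it is present in 52% of all 32851 windows of this length. GGGCGG was found in Efemp1 and Gpha2 and is present in 32.7% of windows. The loosened AP-1 pattern was found once, in Efemp1 as TGAATCA, starting at position -154 from the transcript start, and are present in 6.75% of windows. TATAAA was found on the minus strand of Selenbp2 and is present in 12.4% of windows. The cyclic AMP element (1.55% of windows) and the nuclear receptor core (14% of windows) were found in 0 of the 4. No matches overlapped. Selenbp2 and Selenbp1 share most of their upstream letters: 223 of 238 aligned bases (93.7%) were identical, with 24 further bases opposite gaps, and both hold 1 match each to CACCC and TATAAA. Their GC contents were 49.2% and 51.6%, beside 56.4% in Fcgbp, 53.6% in Efemp1, 55.2% in Gpha2 and a median of 52.4% over all windows.

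All 6 genes were higher in each TPA array than in any CTRL array, a pattern that 20.4% of all genes showed and that the choice of the genes fixes. All 6 were also higher in EXPD4 than in CTRL arrays with no overlap between the groups, which 15.4% of genes showed. Fcgbp, Efemp1, Gpha2 and Tmem45a2 rose further between EXPD4 and TPA, Selenbp2 had come most of the way at EXPD4, and Maob stood at least as high there on average as in TPA arrays. In the limma fit over all 8 arrays, 6 of 6 were called higher in EXPD4 against CTRL arrays, among them Tmem45a2, whose EXPD4 and CTRL signals all lay under the background limit. Of all genes 5.69% rose and 11.5% changed in either direction in that comparison. In TPA against EXPD4 arrays 4 of 6 rose and 0 fell, where 2.81% of all genes rose, 3.16% fell and 5.98% changed in either direction. The same 4 genes had groups that do not overlap, as 13.9% of genes did. The CTRL and TPA arrays of these tests also served to choose the genes. Neither these counts nor the adjusted p of each member given below are therefore independent of the choice. The median difference of the 6 was 3.60 for TPA minus CTRL, 2.16 for EXPD4 minus CTRL and 1.33 for TPA minus EXPD4, beside -0.03, 0.01 and -0.03 over all genes.

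**Figure D1:**
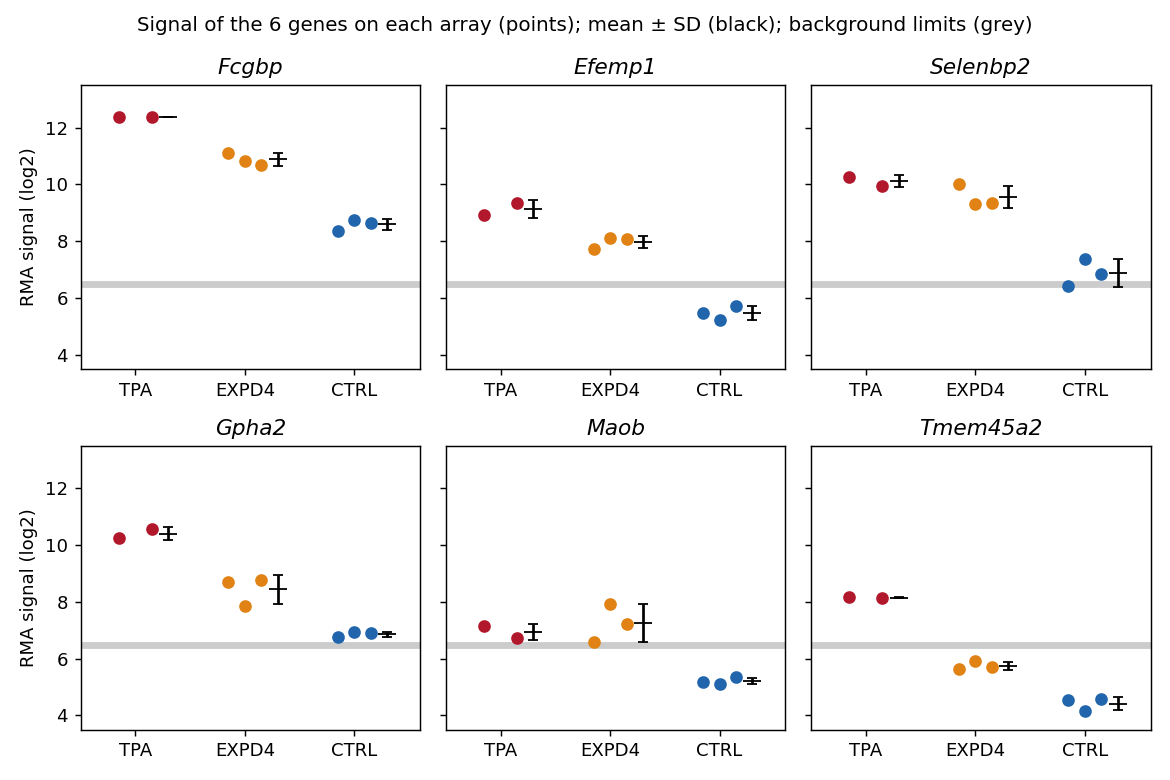
RMA signal (log2, vertical axis) of the 6 genes on each TPA, EXPD4 and CTRL array (points), with mean ± SD in black and the range of background limits (6.37 to 6.55) in grey. Fcgbp, Efemp1, Gpha2 and Tmem45a2 form 3 separate steps, Selenbp2 and Maob overlap between TPA and EXPD4, and Tmem45a2 is above the limit in TPA arrays alone.

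Among the secreted proteins, Fcgbp (probe set 1426872_PM_at) had the strongest signal. It read 12.37 and 12.38 in TPA arrays, 11.11, 10.83 and 10.69 in EXPD4 arrays, and 8.37, 8.74 and 8.65 in CTRL arrays. The 3 groups do not overlap, and the CTRL arrays were already well above the background limit, so both steps were measured between readable signals. Fcgbp was 13.8-fold higher in TPA than in CTRL arrays. It rose in EXPD4 against CTRL arrays by 2.29 ± 0.13 (log2 difference ± SE, 4.89-fold, limma adjusted p = 4.41e-05) and in TPA against EXPD4 arrays by 1.50 ± 0.14 (2.83-fold, adjusted p = 0.00109).

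Efemp1 (1427183_PM_at) read 8.91 and 9.35 in TPA arrays, 7.73, 8.11 and 8.07 in EXPD4 arrays, and 5.47, 5.22 and 5.70 in CTRL arrays. All 3 CTRL arrays were under the background limit and all 5 others above it, so the distance from CTRL is a lower bound. Counted from the limit, Efemp1 was at least 6.14-fold higher in TPA and at least 2.75-fold higher in EXPD4 than in CTRL arrays. The fitted rise in EXPD4 against CTRL arrays was 2.51 ± 0.16 (adjusted p = 6.31e-05). The rise in TPA against EXPD4 arrays, measured above the limit on both sides, was 1.16 ± 0.18 (2.23-fold, adjusted p = 0.00937).

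Gpha2 (1421497_PM_at) read 10.23 and 10.57 in TPA arrays, 8.69, 7.86 and 8.76 in EXPD4 arrays, and 6.76, 6.93 and 6.91 in CTRL arrays. The groups do not overlap, and EXPD4 replicate 2 lay well under the other EXPD4 arrays. Its larger step was the one beyond stretch: it rose by 1.96 ± 0.25 in TPA against EXPD4 arrays (3.90-fold, adjusted p = 0.00333) and by 1.57 ± 0.22 in EXPD4 against CTRL arrays (2.98-fold, adjusted p = 0.00241). Whether the 2 steps of 1 gene differ in size was not tested. Over both steps the difference was 11.6-fold.

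Among the metabolic genes, Selenbp2 (1417580_PM_s_at) read 10.26 and 9.95 in TPA arrays, 9.99, 9.31 and 9.35 in EXPD4 arrays, and 6.41, 7.37 and 6.84 in CTRL arrays. EXPD4 replicate 1 lay within the TPA range, and 1 of the 3 CTRL arrays was under the background limit. Selenbp2 rose by 2.68 ± 0.26 in EXPD4 against CTRL arrays (6.40-fold, adjusted p = 0.000436). Between TPA and EXPD4 arrays the difference was 0.55 ± 0.29 and did not pass the test (adjusted p = 0.357, 95% interval -0.10 to 1.21). The suffix _s_at marks a probe set that can bind transcripts of more than one gene, and Selenbp1 is a close relative, so these signals may hold both transcripts.

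Maob (1434354_PM_at) read 7.14 and 6.73 in TPA arrays, 6.59, 7.92 and 7.24 in EXPD4 arrays, and 5.19, 5.11 and 5.34 in CTRL arrays. Both TPA arrays lie inside the wide EXPD4 range, and the CTRL arrays were all under the background limit. Maob rose in EXPD4 against CTRL arrays by 2.04 ± 0.28 (adjusted p = 0.00241), at least 1.67-fold when counted from the limit. In TPA arrays it was at least 1.35-fold higher than in CTRL arrays by the same count. Between TPA and EXPD4 arrays it differed by -0.31 ± 0.32 (adjusted p = 0.695, 95% interval -1.03 to 0.41), and without EXPD4 replicate 2, its highest array, by 0.02. A stepwise rise from stretch to TPA was not detectable for Maob.

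Tmem45a2 (1430466_PM_at), the membrane protein gene, read 8.16 and 8.14 in TPA arrays, 5.63, 5.90 and 5.72 in EXPD4 arrays, and 4.53, 4.14 and 4.58 in CTRL arrays. All EXPD4 and CTRL arrays were under the background limit. The fit called the difference of 1.33 ± 0.12 between EXPD4 and CTRL arrays (adjusted p = 0.000379), but it lies between signals that cannot be told from background and is given no fold. The rise in TPA against EXPD4 arrays was 2.40 ± 0.14 (adjusted p = 7.68e-05), at least 3.23-fold when counted from the limit. Against CTRL arrays the same count gave at least 3.11-fold.

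**Figure D2:**
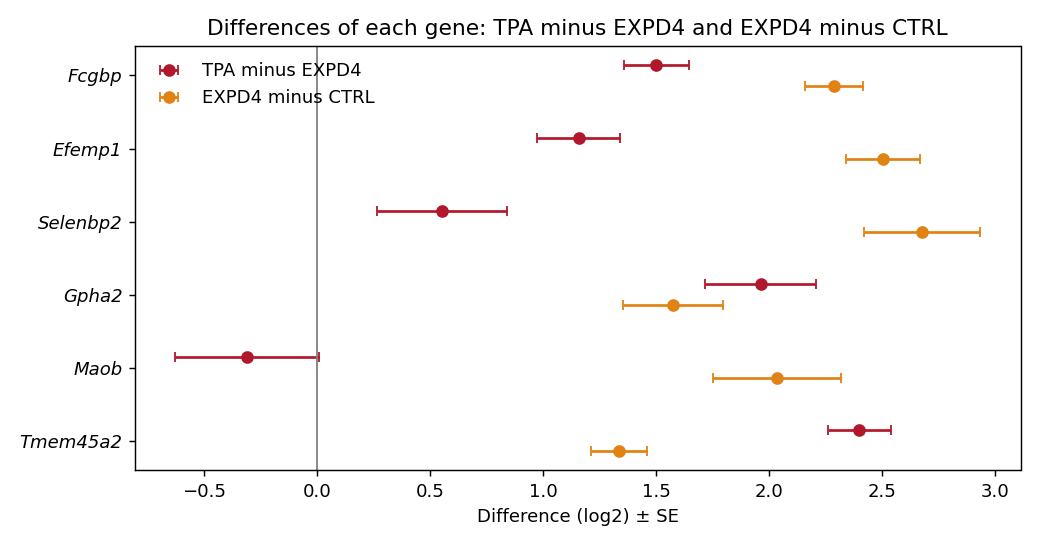
Fitted log2 differences ± SE (horizontal axis) of each gene for TPA minus EXPD4 (red) and EXPD4 minus CTRL (orange). All 6 EXPD4 minus CTRL differences lie between 1.33 and 2.68, while TPA minus EXPD4 runs from -0.31 for Maob to 2.40 for Tmem45a2.

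How far EXPD4 followed can be put on 1 scale by setting the CTRL mean at 0% and the TPA mean at 100% of the log2 difference. Tmem45a2 stood at 35.7%, Gpha2 at 44.5%, Fcgbp at 60.4%, Efemp1 at 68.4%, Selenbp2 at 82.8% and Maob at 118%. Both the scale and its order rest on the labels: with TPA and CTRL exchanged the same means would stand at 64.3%, 55.5%, 39.6%, 31.6%, 17.2% and -18.0% for these genes in the same order. The single EXPD4 arrays ran from 32.6% to 39.9% for Tmem45a2, from 28.3% to 53.6% for Gpha2 and from 55.5% to 66.6% for Fcgbp. They ran from 61.9% to 72.3% for Efemp1, from 75.3% to 96.5% for Selenbp2 and from 80.0% to 157% for Maob. Neighbours in this order overlap between arrays for Tmem45a2 and Gpha2, for Fcgbp and Efemp1, and for Selenbp2 and Maob. As a description of the same measure elsewhere, the 371 genes called at least 2-fold higher in TPA than in CTRL arrays (2.17% of genes) had a median of 55.0% and quartiles of 35.6% and 69.3%. Of these, 14 lay above 100%, Maob among them, and 42 above Selenbp2. With signals raised to the background limit Efemp1 moved to 55.8% and Maob to 172%, and Tmem45a2 could not be placed.

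**Figure D3:**
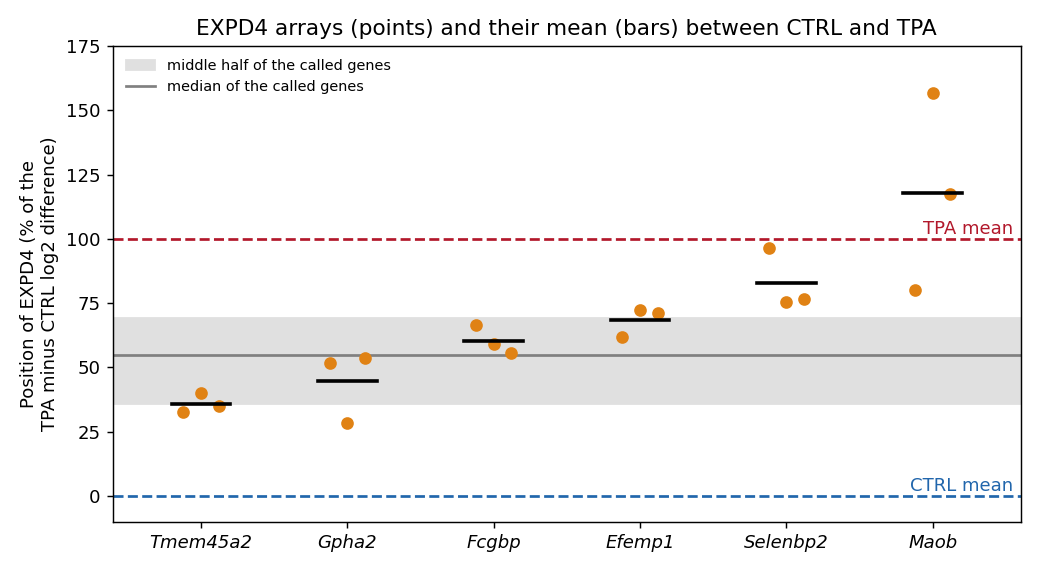
Position of each EXPD4 array (points) and of the EXPD4 mean (bars) between the CTRL mean (0%) and the TPA mean (100%) of the log2 signal, with the median (55.0%) and quartiles (35.6% and 69.3%) of the 371 genes called at least 2-fold higher in TPA. The 6 genes spread from 35.7% for Tmem45a2 to 118% for Maob. The position of Tmem45a2 rests on EXPD4 and CTRL signals under the background limit.

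The closest relatives of 2 of the genes were measured, and they divide. Selenbp1 read 10.83 and 10.56 in TPA arrays, 10.23, 9.55 and 9.88 in EXPD4 arrays, and 7.81, 8.73 and 8.09 in CTRL arrays. Like Selenbp2 it rose in EXPD4 against CTRL arrays (1.68 ± 0.24, adjusted p = 0.0029) and in TPA against CTRL arrays (2.48 ± 0.27, adjusted p = 0.000323), but not past the test in TPA against EXPD4 arrays (adjusted p = 0.138). Within each of the 3 groups the arrays stood in the same order for both genes. The Selenbp2 probe set may also bind Selenbp1 transcripts, so the readings of the 2 genes may not be independent. CTRL replicate 2, the highest CTRL array for both Selenbp genes, was also highest for most genes of the upper follicle and infundibulum list. These were Krt79 (11.30 against 10.03 and 10.11), Cst6 (10.34 against 8.33 and 8.29), Defb6 (10.24 against 7.91 and 7.42), Lrig1, Sox9, Aqp3 and Gata6. Gata6 lay under the background limit, and Postn and Plet1 of the same list were highest in CTRL replicate 1. EXPD4 replicate 1, the highest EXPD4 array for both Selenbp genes, was also highest for Krt79, Cst6, Defb6, Lrig1 and Postn. It was not for Sox9, Plet1, Gata6 and Aqp3. In TPA arrays Krt79, Cst6, Defb6, Sox9 and Gata6 were higher in replicate 2. Lrig1, Postn, Plet1 and Aqp3 were higher in replicate 1, as both Selenbp genes were. The part of such cells in the Selenbp signals was not tested.

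In the TMEM45 family, Tmem45a read 9.97 and 9.88 in TPA arrays, 8.34, 8.77 and 8.77 in EXPD4 arrays, and 7.66, 8.24 and 7.20 in CTRL arrays. It rose in TPA against CTRL arrays (2.22 ± 0.27, adjusted p = 0.000529). Its rises in EXPD4 against CTRL arrays (0.93 ± 0.24, adjusted p = 0.0387) and in TPA against EXPD4 arrays (1.29 ± 0.27, adjusted p = 0.0259) lost their call in 7 and 6 of 15 alternative fits, with adjusted p up to 0.119 and 0.115. Tmem45b moved the other way. It read 6.94 and 4.77 in TPA arrays, 6.61, 6.09 and 7.23 in EXPD4 arrays, and 8.10, 9.15 and 9.08 in CTRL arrays. It fell in TPA against CTRL arrays (-2.92 ± 0.60, adjusted p = 0.00928) and in EXPD4 against CTRL arrays (-2.13 ± 0.54, adjusted p = 0.0372, lost in 6 of 15 alternative fits with adjusted p up to 0.126), with 1 of 2 TPA and 2 of 3 EXPD4 arrays above the background limit. The 2 TPA arrays differ widely for Tmem45b and hardly at all for Tmem45a and Tmem45a2.

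**Figure D4:**
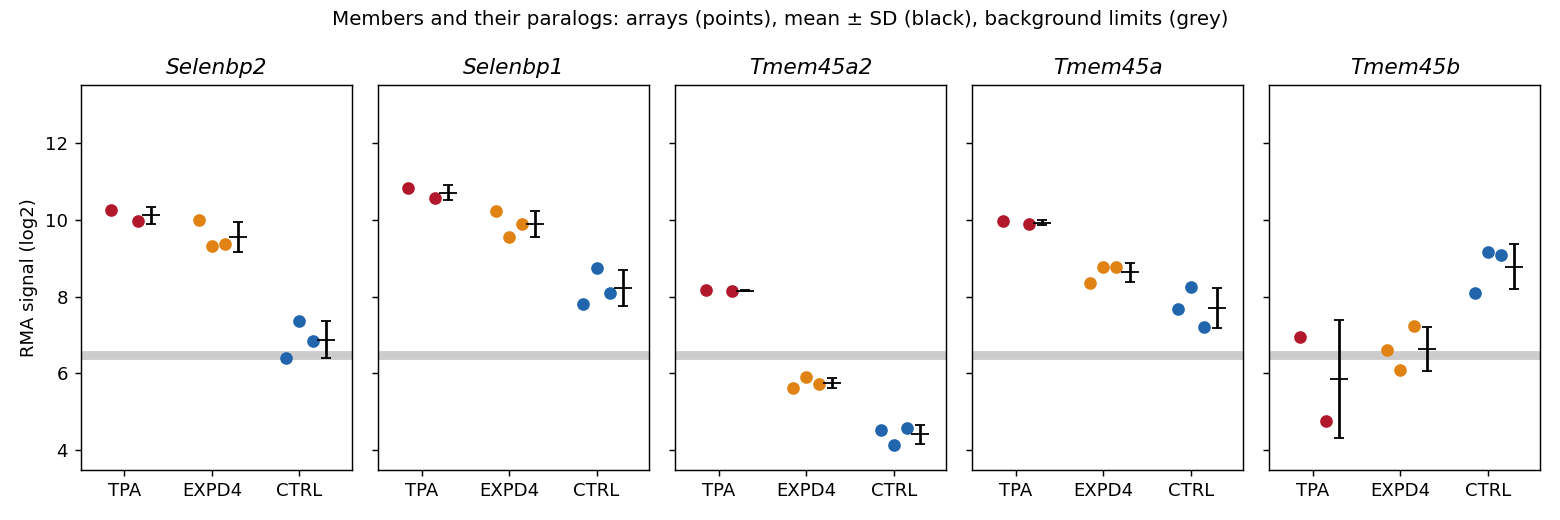
RMA signal (log2, vertical axis) of Selenbp2, Selenbp1, Tmem45a2, Tmem45a and Tmem45b on each TPA, EXPD4 and CTRL array (points), with mean ± SD in black and the background limits in grey. Selenbp1 and Tmem45a are higher in TPA than in CTRL arrays like their relatives, and Tmem45b is lower.

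By their medians the gene lists around the 6 genes did not rise as a whole. The summed linear signals of the fibulin and the monoamine lists were higher in TPA than in CTRL arrays. Those of the other lists overlapped between TPA and CTRL arrays. Among the partners of fibulin-3, of 16 measured fibulin and elastic fibre genes 3 rose and 3 fell in TPA against CTRL arrays (10.2% and 10.6% of all genes did, 20.8% in either direction), and 2 rose and 3 fell in EXPD4 against CTRL arrays (the share of genes that fell was 5.78%). The list medians were -0.06 and 0.00, beside -0.03 and 0.01 over all genes, and 7 of the 16 lay under the background limit on every array. Their summed linear signal was 8131 to 8637 in TPA, 7341 to 7716 in EXPD4 and 6551 to 6593 in CTRL arrays. Timp3, the inhibitor that fibulin-3 binds, stood at 10.52 ± 0.14 in TPA, 8.18 ± 0.30 in EXPD4 and 7.36 ± 0.65 in CTRL arrays. It rose in TPA against CTRL arrays (3.16 ± 0.32, adjusted p = 0.000233) and against EXPD4 arrays (2.34 ± 0.32, adjusted p = 0.00528), and its EXPD4 minus CTRL difference of 0.82 ± 0.29 did not pass (adjusted p = 0.119). Ltbp4, a latent TGF-beta binding protein of elastic fibres, rose in TPA (1.45 ± 0.09) and in EXPD4 arrays (1.10 ± 0.08) against CTRL. Ltbp3, of the same family, rose in TPA (1.12 ± 0.10, adjusted p = 0.000102) and in EXPD4 arrays (0.59 ± 0.09, adjusted p = 0.00343) against CTRL. Fbln1, another fibulin, fell in TPA arrays against CTRL (-1.17 ± 0.12, adjusted p = 0.000239) and did not pass in EXPD4 arrays (-0.07 ± 0.11), and Ltbp1 fell in both (-1.76 ± 0.11 and -0.70 ± 0.10).

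Among 16 measured genes of monoamine and aldehyde breakdown, 4 rose and 2 fell in TPA against CTRL arrays (10.2% and 10.6% of all genes did). In EXPD4 against CTRL arrays 1 rose and 1 fell (5.69% and 5.78%). The medians were 0.07 and 0.05, and 6 of the 16 lay under the background limit on every array. Their summed linear signal was 11096 to 11167 in TPA, 8383 to 9586 in EXPD4 and 7299 to 8470 in CTRL arrays. Aldh2, the mitochondrial dehydrogenase that takes up aldehydes such as those left by monoamine oxidases, stood at 11.99 ± 0.05 in TPA, 11.54 ± 0.06 in EXPD4 and 10.72 ± 0.01 in CTRL arrays. It rose in TPA (1.27 ± 0.07, adjusted p = 1.23e-05) and in EXPD4 arrays (0.81 ± 0.07, adjusted p = 0.000163) against CTRL. Aldh3a1, an aldehyde dehydrogenase abundant in the cornea, rose in TPA (1.33 ± 0.26, adjusted p = 0.00721) and not past the test in EXPD4 arrays (0.44 ± 0.23, adjusted p = 0.316). Sult1a1, a sulfotransferase of phenols, rose in TPA arrays against CTRL (0.71 ± 0.14, adjusted p = 0.0065). Aldh1a3 was lower in both (-1.95 and -2.21), but this call was lost in 9 and 6 of 15 alternative fits. Ddc and Slc29a4, which make and carry monoamines, lay under the background limit on every array, and Maoa is not among the genes measured here.

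Of 22 measured genes that handle selenium or sulfur, 4 rose and 3 fell in TPA against CTRL arrays (10.2% and 10.6% of all genes did). In EXPD4 against CTRL arrays 3 rose and 1 fell (5.69% and 5.78%). The medians were -0.15 and 0.01. Besides Selenbp1 the risers were Selenop, Tst and, in TPA arrays alone past the test, Suox. Selenop, the plasma selenium carrier, rose by 1.26 ± 0.24 in TPA and 1.17 ± 0.21 in EXPD4 arrays against CTRL, from CTRL signals under the limit. Tst, a sulfurtransferase, rose by 0.91 ± 0.13 and 0.55 ± 0.12, and its EXPD4 call was lost in 2 of 15 alternative fits. Suox, sulfite oxidase, rose by 0.97 ± 0.14 in TPA arrays, and its 0.43 ± 0.13 in EXPD4 arrays did not pass (adjusted p = 0.0663). Sqor, the mitochondrial enzyme that oxidises hydrogen sulfide, fell in TPA arrays against CTRL (-1.80 ± 0.15, adjusted p = 7.41e-05) and against EXPD4 arrays (-1.51 ± 0.15, adjusted p = 0.00123). Sephs2, which makes the selenium donor for selenoproteins, was called lower in TPA against EXPD4 arrays (adjusted p = 0.0345), a call lost in 7 of 15 alternative fits. Selenok, a selenoprotein of the endoplasmic reticulum, fell in TPA (-0.43 ± 0.11, lost in 3 of 15 alternative fits) and in EXPD4 arrays (-0.54 ± 0.09) against CTRL.

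Of 6 other measured glycoprotein hormone subunits and receptors 5 lay under the background limit on every array, among them Cga, the alpha subunit of the pituitary hormones (5.11 ± 0.09, 5.28 ± 0.02 and 5.26 ± 0.13 in TPA, EXPD4 and CTRL arrays), and Tshr, the thyrotropin receptor (5.91 ± 0.04, 5.99 ± 0.06 and 5.89 ± 0.27). Lhb, the luteinizing hormone beta subunit, was called higher in TPA arrays (0.35 ± 0.09 against CTRL, adjusted p = 0.0263), a call lost in 5 of 15 alternative fits. Gphb5, the partner subunit of Gpha2, is not among the genes measured here. Of 18 measured mucin and mucus genes around Fcgbp, 0 passed the limma test in TPA or EXPD4 against CTRL arrays or in TPA against EXPD4 arrays, and 8 lay under the limit on every array. At an unadjusted p under 0.05 the counts were 2, 1 and 2, where 31.7%, 23.7% and 19.3% of all genes passed. Muc5ac, a gel-forming mucin of the airways and the gene with the smallest p in TPA against CTRL arrays, stood at 7.01 ± 0.07, 7.16 ± 0.04 and 7.24 ± 0.07 in TPA, EXPD4 and CTRL arrays (adjusted p = 0.0806). Of the 7 other TMEM45 and keratinization membrane genes, 2 rose and 3 fell in TPA against CTRL arrays (10.2% and 10.6% of all genes did). In EXPD4 against CTRL arrays 2 rose and 2 fell (5.69% and 5.78%). Tmprss13, a membrane serine protease of epidermis, rose by 0.42 ± 0.07 in TPA and by 0.38 ± 0.06 in EXPD4 arrays against CTRL. Tmem79, a protein of lamellar granules, fell in TPA (-0.83 ± 0.13) and, with a call lost in 4 of 15 alternative fits, in EXPD4 arrays (-0.57 ± 0.12).

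The genes with the most similar profiles were sought by Pearson r of the log2 signal over the 8 arrays, among 814 bright genes whose group means spanned at least 2-fold. As the arrays form 3 groups, high r is common, and 4 to 128 genes passed 0.95 with each member. Fcgbp was closest to Il17rb, an interleukin receptor subunit (r = 0.997), and to Phospho1 and Fgfr2. Efemp1 was closest to the homeobox gene Hoxc13 (r = 0.995), Kitl and Zbtb16. Gpha2 was closest to Tnfrsf19, a TNF receptor family member (r = 0.993), Spock2 and Man2a2. Selenbp2 was closest to Oplah, which encodes 5-oxoprolinase (r = 0.993), Bbip1 and Selenbp1 (r = 0.983), whose transcripts its probe set may also bind. Tmem45a2 was closest to the cytokine signalling inhibitor Cish (r = 0.992), Spock2 and Cxcl14. Maob had 4 such genes and was closest to Npl, a sialic acid lyase (r = 0.974), Ankrd35 and Calm4. The members were not each other's closest partners, as the best placed other member came between place 28 and place 65.

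Of 12 measured markers of suprabasal cells, 5 rose and 1 fell in TPA (10.2% and 10.6% of all genes did) and 6 rose and 1 fell in EXPD4 against CTRL arrays (5.69% and 5.78%). Krt2, a late keratin, rose by 5.97 in TPA and 5.72 in EXPD4 arrays, Krt1 was called higher in both with the TPA call lost in 5 of 15 alternative fits, and Cnfn, a cornified envelope gene, fell by 1.53 in TPA and 1.64 in EXPD4 arrays. Their summed linear signal was 30557 to 31950 in TPA arrays, 30313 to 32678 in EXPD4 arrays and 12750 to 16423 in CTRL arrays, and Lor and Flg, late markers, lay under the background limit on every array. Of 8 bulge genes 3 rose in TPA (10.2% of all genes did) and 2 in EXPD4 arrays (5.69%) against CTRL, led by Krt15 (2.38 and 1.23). The TPA call of Nfatc1 (0.46 ± 0.11) was lost in 4 of 15 alternative fits. Cd34, Lgr5 and Lhx2 were under the limit. Of 10 fibroblast genes, relevant to Efemp1, 2 rose in TPA (Dcn and, with a call lost in 8 of 15 alternative fits, Col6a1) and 0 in EXPD4 arrays by limma. At an unadjusted p under 0.05 in EXPD4 arrays, Dcn was higher and Col6a1 lower. In TPA arrays Vim was lower at that level (-2.01 ± 0.82), with no overlap with CTRL arrays. Col1a1 was lower in TPA arrays, again without overlap, and did not pass (-0.68 ± 0.31). The summed signal of the fibroblast list was 1561 to 1729, 956 to 1581 and 1119 to 2687 in TPA, EXPD4 and CTRL arrays. Of this list Col1a2, Lum, Pdgfra and Dpt lay under the limit. The part of these cells in the 6 genes was not tested.

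Of 9 upper follicle and infundibulum genes 1 rose (Postn) and 1 fell (Plet1) in each of TPA and EXPD4 against CTRL arrays. Of all genes 10.2% rose and 10.6% fell in TPA arrays, and 5.69% and 5.78% in EXPD4 arrays. The summed signals of the list were 19204 to 20833, 13169 to 17746 and 16137 to 20535 in TPA, EXPD4 and CTRL arrays. In TPA and in EXPD4 against CTRL arrays, 0 of 8 sebaceous and 0 of 8 endothelial genes rose, and 1 sebaceous gene (Plin2) fell in TPA arrays, a call lost in 9 of 15 alternative fits. At an unadjusted p under 0.05, 1 sebaceous gene passed in each comparison and 0 endothelial genes did. The summed endothelial signal was 683 to 760 in TPA, 796 to 1244 in EXPD4 and 805 to 2253 in CTRL arrays. In CTRL replicate 1 Cdh5 read 9.73 (7.02 and 6.86 in the other CTRL arrays), Emcn 8.14 (5.75 and 6.34) and Pecam1 8.30 (6.88 and 6.96). Of 9 myeloid genes 4 fell in TPA and 2 in EXPD4 arrays, where 10.6% and 5.78% of all genes fell. S100a8 (-3.25) and S100a9 (-2.37) fell in TPA arrays alone past the test, and Cd14 and Cxcr2 in both. In CTRL arrays S100a8 and S100a9 stood at 10.37 ± 0.32 and 10.30 ± 0.34. Itgam, Adgre1 and Cxcr2 of the same list lay under the limit on every array. The EXPD4 call of Cxcr2 was lost in 4 of 14 alternative fits. Of 5 Langerhans genes 1 fell in TPA (H2-Ab1) and 2 in EXPD4 arrays (H2-Ab1 and Epcam), beside 10.6% and 5.78% of all genes. The EXPD4 call of H2-Ab1 was lost in 1 of 15 alternative fits (adjusted p = 0.087). Cd207 lay under the limit on every array. Neither H2-Aa (0.02 in TPA and 0.06 in EXPD4 arrays) nor Cd74 (-0.11 and -0.24) passed against CTRL. Of 8 melanocyte genes Mitf, under the limit on every array, was called higher in TPA arrays. Which cells gave these signals was not tested.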

How the data were processed

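The deposited values are log2 signals made by the authors with RMA, per the submitters' processing notes, which give no version. RMA subtracts background, equalises the distributions of the arrays and sums up probes, which hides any shift shared by all genes. Per the labels' protocols, RNA of 300 sorted cells was amplified, stopping after 25 cycles, which can widen the spread of weak transcripts. Of 45141 probe sets, 28898 carried 1 gene symbol in the platform's annotation, and the brightest stood for each of 17097 genes.

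Group means of all 8 arrays were modelled with lmFit and eBayes of limma 3.58.1 (R 4.3.3), with Benjamini-Hochberg adjustment over all genes and a threshold of 0.05. It was tested on simulated data. Where every array of a group lay under the background limit, the fold is a lower bound taken from that limit. The number of arrays limits the precision. The members and gene lists were chosen with earlier results of these data known. Named genes are the members, their paralogs, up to 3 genes per list with the smallest p in each comparison, checks of gate and labels, and the 3 most similar genes per member. The marker genes named beside list counts, Postn, Plet1, Plin2, Mitf, Dcn, Col6a1, Krt1, Krt2, Cnfn, Krt15, Krt79 and Cst6, and Ddc and Slc29a4 were chosen after their values were seen. So were the markers Defb6, Lrig1, Sox9, Aqp3, Gata6, Cd14, S100a8, S100a9, Cxcr2, H2-Ab1 and Epcam. The same holds for Vim, Col1a1, Nfatc1, Itgam, Adgre1, Cd207, H2-Aa, Cd74, Cdh5, Emcn and Pecam1. Alternatives covered scaling, filtering, probe set choice, variance moderation, arrays and pairing.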

Additional observations from a re-analysis of the deposited data

How the results depend on the processing

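Of 359 recomputed values of the 6 genes, 356 kept their direction, their side of the threshold and, where untested, their size within the spread between arrays. The 3 exceptions were the TPA minus EXPD4 difference of Maob, which had the opposite sign without EXPD4 replicate 2 (0.023, range -0.64 to 0.023 over the fits without 1 array), and the positions of Efemp1 (55.8%) and Maob (172%) with signals raised to the background limit, an alternative chosen after seeing the data. The same position of Tmem45a2 is not among the 359. All its EXPD4 and CTRL signals are then set to the limit, and its value of -3.1% in place of 35.7% places nothing. The EXPD4 minus CTRL difference passed for all 6 genes, Tmem45a2 with all signals under the background limit among them, in every alternative fit, also with the TPA arrays left out, with adjusted p of at most 0.0133. All these fits reuse the CTRL arrays that also served to choose the genes, so they are not independent of the choice. The filtering alternative kept genes with a group mean above the median signal (7.11). Tmem45a2 passed it only through its TPA mean (8.15) and Maob only through its EXPD4 mean (7.25), a group then tested. Counts over all genes moved more. The 1960 genes called between EXPD4 and CTRL arrays became 1261 to 2076 without 1 array, with the lowest count without CTRL replicate 2. The 1022 called between TPA and EXPD4 arrays became 560 to 922 without 1 array (636 without EXPD4 replicate 2, 560 without EXPD4 replicate 3 and 568 without TPA replicate 1), and 511 with only the arrays of the groups compared. With the replicate block they became 541. Arrays of the same number did not vary together (r = -0.18 to 0.03, and 0 of 6 CTRL and EXPD4 arrays correlated best with their own number), so the block pairs nothing known, and it changed no other count by over 1.5 times and no call of the 6 genes. Fits with 1 TPA array assume that it varies like the other groups. The position could not be taken with only 2 groups in the fit. Of 159 called differences of other genes, 44 lost their call in at least 1 alternative, and the call of Aldh2 between TPA and EXPD4 arrays was lost with the mean of its probe sets (adjusted p = 0.863). Signals under the background limit, which is a stand-in, limit Efemp1, Maob and Tmem45a2.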

Other observations

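The genes beside the 6 in the genome were also measured. For each member the 3 nearest measured protein-coding genes on either side were taken in the order of the RefSeq annotation, after the values of the members were known. Of these 36 neighbours, 2 rose in EXPD4 against CTRL arrays by limma (5.56%, beside 5.69% of all genes) and 1 fell (2.78%, beside 5.78%). In TPA against CTRL arrays 7 rose (19.4%, beside 10.2% of all genes) and 4 fell (11.1%, beside 10.6%). In TPA against EXPD4 arrays 4 rose (11.1%, beside 2.81%) and 1 fell (2.78%, beside 3.16%). Each of these calls was lost in some alternative fits. Those of the risers Pogz, Ehd1 and Tmem45a were lost in 11, 7 and 6 of 15. That of Abi3bp, under the background limit on every array, was lost in 5 of 14. Cask, which fell, lost its call in 6 of 15. In TPA against CTRL arrays the risers Dyrk1b and Arl2 lost theirs in 2 and 5 of 15, and Fancl and Tfg, which fell, in 12 and 5. The 2 that rose in EXPD4 arrays were Tmem45a, which lies next to Tmem45a2, and Pogz, a zinc finger gene near Selenbp2 (0.88 ± 0.09 in TPA and 0.47 ± 0.08 in EXPD4 arrays against CTRL). The 1 that fell was Ehd1, a gene of membrane recycling near Gpha2 (-0.53 ± 0.08 in TPA and -0.90 ± 0.07 in EXPD4 arrays against CTRL). The neighbours named up to here were named after their values were seen. The genes directly beside Fcgbp, Psmc4 and Fbl, stood at 11.70 ± 0.09 and 12.12 ± 0.07 in TPA, 11.82 ± 0.04 and 12.22 ± 0.03 in EXPD4 and 11.82 ± 0.04 and 11.98 ± 0.09 in CTRL arrays and did not pass in either comparison with CTRL.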
